A study of Mus musculus with 6 samples.

Results

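The clade A serpins of liver described here are 10 genes of chromosome 12: Serpina1a, Serpina1b, Serpina1c, Serpina1d, Serpina1e, Serpina3k, Serpina3n, Serpina5, Serpina6 and Serpina12. They were taken by symbol from the 29667 rows of a read count table of mouse liver, and the set was drawn up with the difference between the genotypes already known, including the near absence of Serpina5 in the mutant. Their differences between genotypes are therefore given as a description with no test. All 10 passed the filter on low counts, which kept 14843 genes. The table compared livers of Prox1-cKO mice (Alb-Cre; Prox1 f/f) with livers of WT mice, which carried the floxed Prox1 f/f alleles and no Cre. There were 3 samples of each genotype, which the study treats as biological replicates. The mice were on a C57BL/6 background, and the labels give neither the age nor any treatment of the sampled mice. Cre was driven by the promoter of albumin, a gene of hepatocytes. Prox1 encodes a homeobox transcription factor of hepatocytes and lymphatic endothelium, and which cells of the mutant liver keep it was not measured.

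Serpins are proteins of one fold in which an exposed loop acts as bait. A protease cuts the loop at the bond after the residue called P1, the loop inserts into the body of the serpin, and the protease is trapped in a covalent complex. Most clade A serpins are secreted by hepatocytes into plasma, where they restrain proteases of leukocytes, coagulation and the kallikrein system, and some members no longer inhibit proteases and carry hormones instead. Mice hold several copies of the antitrypsin gene (Serpina1) and of the antichymotrypsin gene (Serpina3), each of which is a single gene in humans.

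The Serpina1 copies are near identical except around the bait, so the coding stretch of the reactive centre loop is shown for all 5. Each line is the coding strand of GRCm38 (GENCODE M21 transcripts), on the minus strand of the chromosome, and the capitals mark the 18 of 81 positions at which the 5 genes are not all alike.
Serpina1a, chr12:103853750-103853830: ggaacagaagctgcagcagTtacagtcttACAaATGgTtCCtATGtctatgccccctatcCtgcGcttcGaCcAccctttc
Serpina1b, chr12:103728317-103728397: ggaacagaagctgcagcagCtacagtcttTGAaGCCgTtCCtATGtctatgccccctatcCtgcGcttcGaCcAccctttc
Serpina1c, chr12:103895087-103895167: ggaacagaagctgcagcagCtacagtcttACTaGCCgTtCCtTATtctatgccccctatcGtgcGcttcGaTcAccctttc
Serpina1d, chr12:103763755-103763835: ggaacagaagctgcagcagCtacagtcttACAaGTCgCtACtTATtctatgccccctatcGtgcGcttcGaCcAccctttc
Serpina1e, chr12:103947093-103947173: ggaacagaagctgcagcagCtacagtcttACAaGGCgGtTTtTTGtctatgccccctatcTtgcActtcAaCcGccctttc
The codon of the P1 residue takes bases 43 to 45 of the stretch. It was ATG in Serpina1a and Serpina1b, TAT in Serpina1c and Serpina1d, and TTG in Serpina1e. Pairs of these genes differed at 5 to 12 of the 81 bases, fewest between Serpina1c and Serpina1d. Over the whole coding sequence the 10 pairs were 96.3% to 98.5% identical. The 34 other pairs of members, leaving out Serpina3k with Serpina3n at 83.5%, were 57.4% to 63.1% identical. Most of these pair a Serpina1 copy with another member.

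The promoter is shown for Serpina5, whose level differed most. The sequence is of the RefSeq promoter table for GRCm38, which held 8 of the 10 members, and the promoters of the 10 pairs of Serpina1 copies were 92.1% to 98.0% identical, against 46.9% to 59.5% for the 18 other pairs. For Serpina5 the 250 bases before the start, on the plus strand, carry in capitals TTGCGCAA, letters bound by C/EBP factors, and AGAACA, the complement of the glucocorticoid receptor core TGTTCT.
Serpina5, chr12:104100863-104101112: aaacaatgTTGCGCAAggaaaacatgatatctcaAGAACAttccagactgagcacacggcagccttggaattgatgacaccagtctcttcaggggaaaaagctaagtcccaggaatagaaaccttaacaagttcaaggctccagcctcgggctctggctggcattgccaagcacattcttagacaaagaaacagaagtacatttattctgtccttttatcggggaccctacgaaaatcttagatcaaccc
The motifs given here were searched on both strands of the 250 bases before the start, in the members and in all 32851 promoters of the table. TTGCGCAA was found in Serpina5 only, 242 bases before the start, against 0.16% of all promoters. TGTTCT was found in 7 of the 8 members, all but Serpina12, against 16.08% of all promoters. TATAAA, CAAAGTCCA (HNF4) and TTCNNNGAA (STAT) were found in 0 of the 8, against 12.37%, 0.38% and 7.02% of all promoters. A match is a run of letters and not a site shown to be used, and the members of one family share their letters by descent.

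The targeted gene was measured first. Prox1 had 3389, 3286 and 2915 reads in the Prox1-cKO livers, against 12662, 17317 and 16472 reads in the WT livers, a log2 fold change of -1.91 (SE 0.20, adjusted p = 0.000605), so the genotypes did not overlap and Prox1 reads remained in the mutant. Libraries held 19036950 to 20537091 reads in genes in Prox1-cKO and 18066205 to 19921674 in WT, with 20540 to 20864 genes seen in Prox1-cKO and 22055 to 23252 in WT. The TMM scaling factors were 0.842 to 0.893 in Prox1-cKO and 1.091 to 1.195 in WT, and the median shift of the log2 fold changes when libraries were scaled by their totals alone was -0.41. Unless another unit is named, levels below are CPM, read counts per library size scaled by TMM. The summed level of the hepatocyte markers was 114937 to 142189 CPM in Prox1-cKO and 73653 to 87093 CPM in WT, with 5 of the 7 tested markers higher. Summed bile duct markers were 34.1 to 55.6 CPM in Prox1-cKO against 120 to 190 CPM in WT, those of dividing cells 12.8 to 15.4 against 43.7 to 114 CPM, and those of stellate cells and fibroblasts 231 to 277 against 407 to 424 CPM. Their part in the serpin differences was not tested, and in bulk liver fewer cells of a type and less RNA per cell cannot be told apart.

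The antitrypsins were abundant in both genotypes and, for 4 of the 5 copies, more abundant in every Prox1-cKO liver than in any WT liver. Antitrypsin is the main plasma inhibitor of neutrophil elastase. Serpina1b, which has the P1 codon ATG, had 6849, 5857 and 6205 CPM in Prox1-cKO livers, against 3270, 4141 and 5339 CPM in WT livers. Serpina1a, with the same codon, had 1934, 1681 and 1627 CPM in Prox1-cKO livers, against 975, 1083 and 1422 CPM in WT livers. The genotypes did not overlap for either gene, with log2 fold changes of 0.57 (SE 0.25) and 0.59 (SE 0.21), yet WT replicate 3 came close to the mutant. With library totals alone the genotypes of both overlapped, at 0.16 and 0.19.

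Serpina1d, whose P1 codon is TAT, had the largest difference of the antitrypsins. Its level was 4152, 3247 and 3364 CPM in Prox1-cKO livers, against 1327, 1652 and 2346 CPM in WT livers. The lowest mutant liver lay above the highest WT liver under both scalings, and the log2 fold change was 1.02 (SE 0.26). Serpina1c, which has the same P1 codon and the least abundant mRNA of the group, had 174, 171 and 136 CPM in Prox1-cKO livers, against 93.9, 138 and 186 CPM in WT livers. Here the genotypes overlapped, and the log2 fold change of 0.20 (SE 0.24) became -0.20 with library totals alone and ranged between -0.011 (without WT replicate 1) and 0.49 (without WT replicate 3) when single libraries were left out. Serpina1e, with the P1 codon TTG, had 7611, 6474 and 6465 CPM in Prox1-cKO livers, against 1963, 4699 and 5914 CPM in WT livers. Its genotypes did not overlap under TMM scaling and overlapped with library totals alone. The log2 fold change was 0.71 (SE 0.38), and 0.37 without WT replicate 1, the lowest of the WT livers.

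Reads of near-identical copies can be assigned to the wrong one, so the sharing of sequence was measured. Of the 100-base windows in the transcripts of each gene, the share found also in another gene was 69.3% for Serpina1c, 42.8% for Serpina1a, 29.3% for Serpina1d, 14.8% for Serpina1b and 14.4% for Serpina1e. The values of Serpina1a and Serpina1c are thus the least certain, and Serpina1c also overlaps the antisense gene B430119L08Rik over 429 bases, or 31.5% of its exons, with no strand setting given in the sources used here. The share was 4.9% for Serpina3k and 0.2% for Serpina3n. It was 0.0% for Serpina5, Serpina6 and Serpina12, so reads of these 3 genes could be placed at this length. When the reads of the 5 antitrypsins were summed, the level was 20720, 17431 and 17796 CPM in Prox1-cKO livers, against 7629, 11713 and 15207 CPM in WT livers. Under TMM scaling the sums did not overlap, and the log2 fold change was 0.70 (SE 0.31). WT replicate 3 held 299247 reads of the 5 genes among 18066205 reads in genes. Prox1-cKO replicate 3 held 300862 among 19481160, so the sums overlapped with library totals alone.

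**Figure D1:**
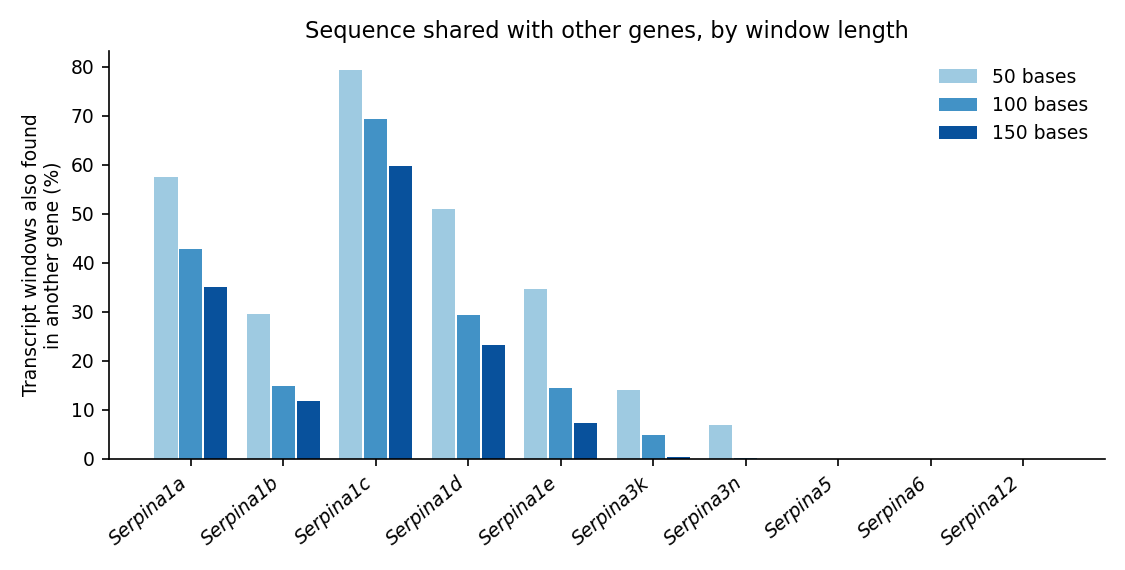
Percentage of transcript windows of each serpin gene (vertical axis) that also occur in another gene, for windows of 50, 100 and 150 bases (bar shades). At 100 bases the share is 69.3% for Serpina1c and 0.0% for Serpina5, Serpina6 and Serpina12.

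The division of reads among the antitrypsin copies was compared within each liver. Serpina1e took 36.33% to 37.14% of the reads of the 5 genes in Prox1-cKO livers, against 25.73%, 40.12% and 38.89% in WT livers. WT replicate 1 stood apart in this, with 44513 Serpina1e reads, against 111651 and 116384 in the other WT livers. Serpina1d took 18.63% to 20.04% of the reads in Prox1-cKO livers, against 14.11% to 17.39% in WT livers. Its share was thus higher in every mutant liver than in any WT liver. Serpina1b took 33.05% to 34.87% in Prox1-cKO livers, against 35.11% to 42.87% in WT livers, and Serpina1c took 0.76% to 0.98%, against 1.18% to 1.23% in WT livers. The shares of both copies were lower in every mutant liver, and those of Serpina1a overlapped, at 9.14% to 9.64% in Prox1-cKO livers and 9.25% to 12.78% in WT livers. These shares sum to the whole and so are not independent of each other.

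**Figure D2:**
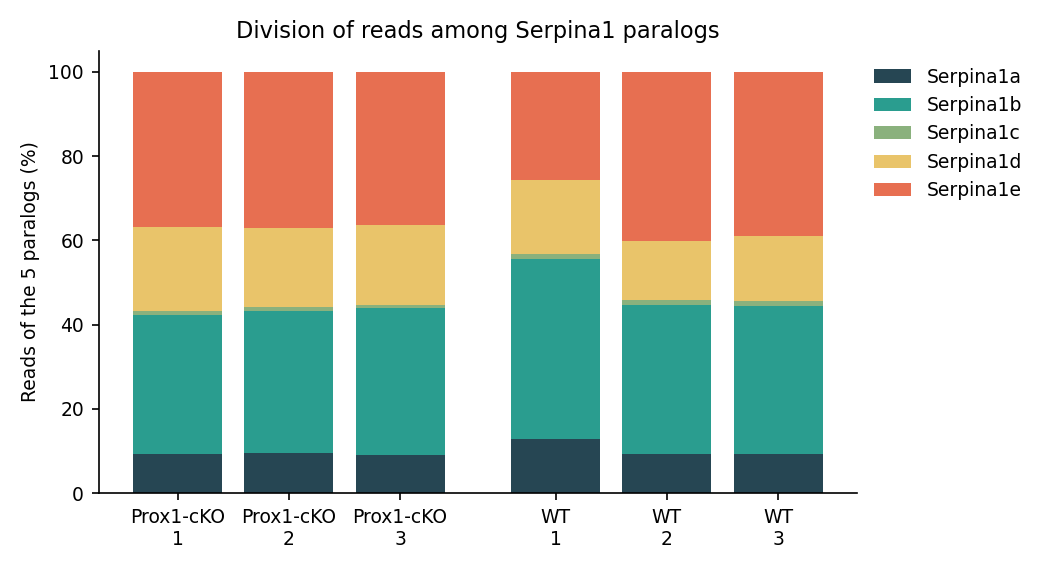
Share of the reads of the 5 Serpina1 copies (vertical axis, percent) taken by each copy in each liver, with the 3 Prox1-cKO livers on the left and the 3 WT livers on the right. Serpina1e takes 25.73% in WT replicate 1 and 36.33% to 40.12% in the other 5 livers.

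Of the antichymotrypsin-like members, Serpina3k and Serpina3n were both higher in the mutant. Serpina3k encodes a plasma serpin that binds kallikrein and is also called contrapsin. Its level was 11938, 8146 and 10217 CPM in Prox1-cKO livers, against 2694, 3458 and 5216 CPM in WT livers. Every mutant liver exceeded every WT liver, with a log2 fold change of 1.41 (SE 0.31), or 1.01 with library totals alone. Serpina3k shares its first annotated base and 60 exon bases with the neighbouring Serpina3m, to which its coding sequence is 92.0% identical, and the sum of both rows gave the same log2 fold change of 1.41 (SE 0.31). Serpina3n encodes an inhibitor of granzyme B and other proteases and is known as an acute phase gene. Its level was 1207, 775 and 597 CPM in Prox1-cKO livers, against 135, 116 and 126 CPM in WT livers. The WT livers lay close together and the mutant livers ranged widely above them, with a log2 fold change of 2.77 (SE 0.28), the largest positive value among the members.

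Serpina5, the protein C inhibitor, was nearly absent from the mutant. Its product inhibits activated protein C, urokinase and kallikreins, and in mice it is best known from the reproductive tract, whereas in humans the liver also makes it. There were 2, 1 and 4 Serpina5 reads in the Prox1-cKO livers, against 2597, 3076 and 3439 reads in the WT livers. As levels these were 0.125, 0.0546 and 0.237 CPM in Prox1-cKO livers, against 115, 130 and 175 CPM in WT livers. No liver was intermediate, and the ratio of WT over Prox1-cKO from the summed reads was 1009 (95% exact counting interval 489 to 2509, which covers counting error only). The log2 fold change was -9.93 (SE 0.35), -10.32 with library totals alone, and -6.93 by limma on log2(CPM + 1), a scale that understates changes towards 0. With so few mutant reads it also moved with single libraries, between -10.53 (without Prox1-cKO replicate 3) and -9.52 (without Prox1-cKO replicate 2). The 3 of 6 markers of the male reproductive tract that were matched in the table summed to 0 CPM in each Prox1-cKO liver and to at most 0.0421 CPM in WT livers, with Svs2 and Svs4 at 0 reads. Kidney markers (3 of 6 matched) summed to 0 to 0.0546 CPM in Prox1-cKO, against 0.505 to 0.794 CPM in WT. Exocrine pancreas markers (5 of 6 matched) summed to 0.0592 to 0.25 CPM, against 0.61 to 1.54 CPM in WT. In each of these 2 sets the 1 tested marker was lower, and their part in the Serpina5 difference was not tested.

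Serpina6 encodes corticosteroid-binding globulin, the plasma carrier of glucocorticoids, and does not inhibit proteases. Its level was 90.3, 77.4 and 86.0 CPM in Prox1-cKO livers, against 82.8, 79.5 and 79.4 CPM in WT livers. The genotypes overlapped, the spread was small, and the log2 fold change was 0.07 (SE 0.11). With library totals alone it was -0.34, with every mutant liver below every WT liver. Serpina12 encodes vaspin, an adipokine that inhibits kallikrein 7 and is also made in liver. Its level was 12.8, 11.3 and 12.9 CPM in Prox1-cKO livers, against 44.3, 22.8 and 48.8 CPM in WT livers. The mutant livers lay close together below all WT livers, of which replicate 2 was the lowest, and the log2 fold change was -1.65 (SE 0.27).

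**Figure D3:**
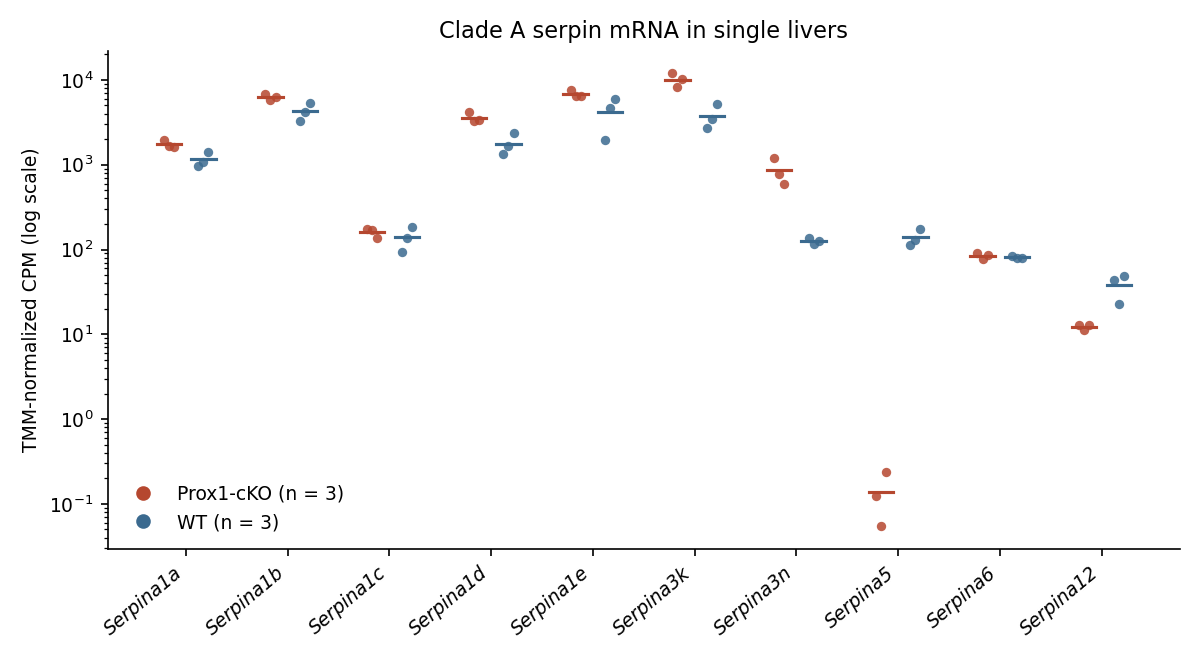
Level of each serpin gene in each liver in TMM-scaled CPM (vertical log axis), with Prox1-cKO points to the left of WT points and a bar at the mean of the 3 livers. Serpina5 lies at 0.0546 to 0.237 CPM in Prox1-cKO and at 115 to 175 CPM in WT, whereas Serpina6 overlaps.

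Counted together, the genotypes did not overlap for 6 members that were higher in Prox1-cKO, beside 23.3% of all tested genes, and for 2 that were lower, beside 26.6%. Past the call threshold (edgeR adjusted p under 0.05 over all genes) were 3 members higher, beside 14.1% of all genes, and 2 lower, beside 20.2%. The members were chosen on these values, so nothing is read from the counts. With library totals alone the genotypes did not overlap for 3 members that were higher and 3 that were lower, and 2 members were called higher. The calls higher also numbered 2 without WT replicate 1 or 2, or without Prox1-cKO replicate 1 or 2. Without WT replicate 3 they numbered 5. The median log2 fold change of the members was 0.58, and over all tested genes it was -0.02. Together the 10 genes took 2.86%, 2.36% and 2.49% of all reads in Prox1-cKO livers, against 1.26%, 1.85% and 2.27% in WT livers.

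The order of the mean levels, taken as CPM per kilobase of exon to allow for gene length, differed between the genotypes. Sequence shared among the Serpina1 copies limits their ranks, most for Serpina1a and Serpina1c. In Prox1-cKO it ran Serpina3k (4910 ± 923, SD, n = 3), Serpina1e (4236 ± 408), Serpina1b (2610 ± 208), Serpina1d (2574 ± 353), Serpina1a (954 ± 89.4), Serpina3n (417 ± 152), Serpina1c (118 ± 15.8), Serpina6 (48.0 ± 3.74), Serpina12 (3.34 ± 0.25) and Serpina5 (0.0642 ± 0.0425). Among neighbours in this order, the livers overlapped for Serpina3k with Serpina1e and for Serpina1b with Serpina1d. In WT the order ran Serpina1e (2593 ± 1252), Serpina3k (1842 ± 629), Serpina1b (1760.0 ± 430.1), Serpina1d (1273 ± 373), Serpina1a (633 ± 127), Serpina1c (102 ± 33.8), Serpina5 (64.6 ± 14.5), Serpina3n (60.9 ± 4.54), Serpina6 (45.7 ± 1.11) and Serpina12 (10.5 ± 3.77). The livers overlapped for each neighbouring pair among Serpina1e, Serpina3k, Serpina1b and Serpina1d, and among Serpina1c, Serpina5 and Serpina3n. Serpina5 was thus the seventh of the 10 per kilobase in WT and the last in Prox1-cKO. With the length of the longest transcript in place of all exons, the level of Serpina1b was 3578 CPM per kilobase in Prox1-cKO and 2412 in WT. The WT value lies above the 1842 listed for Serpina3k, so the WT order depends on the length used.

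The members sit in a cluster of 28 Serpina genes, 23 of them protein coding, that spans 799.5 kb (chr12:103614786-104414329). Along it, genes that were higher, genes that were lower and genes that overlapped lay side by side. Over all tested genes, 23.3% were higher and 26.6% lower with no overlap. The 5 antitrypsins, on the minus strand (Serpina1b at chr12:103728156-103830373 to Serpina1e at chr12:103946931-103958975), were higher or overlapped. Further on, Serpina9, Serpina12 (chr12:104028769-104044443), Serpina4-ps1, Serpina5 (chr12:104101113-104106137) and Serpina3a, were each lower in every Prox1-cKO liver than in any WT liver. Serpina11, between the antitrypsins and Serpina9, overlapped, at 0.13 (adjusted p = 0.695). It shares 40.8% of its exon bases with Gm28577 on the same strand, which limits its count. Between Serpina3a and Serpina3m the rows were mixed. Serpina3f, Serpina3g and Serpina3h overlapped. Of the rows there that did not pass the filter, Serpina3b, Serpina3d-ps and Serpina3j were lower, Serpina3c was higher, and Serpina3e-ps and Serpina3i overlapped. These rows held at most 28 reads in any liver, so nothing is read from their directions. Serpina3c had 3, 4 and 3 reads in Prox1-cKO livers, against 2, 2 and 3 in WT livers. The far end, with Serpina3m, Serpina3k (chr12:104338486-104346144) and Serpina3n (chr12:104406729-104414329) on the plus strand, was higher. Serpina6 (chr12:103646630-103657212), near the other end, overlapped.

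The genes next to Serpina5 were no part of the set and were tested. Serpina4-ps1, a pseudogene related to kallistatin that ends 14.4 kb before Serpina5, had 7.25, 5.19 and 18.04 CPM in Prox1-cKO livers, against 85.1, 153 and 84.0 CPM in WT livers. It fell with a log2 fold change of -3.41 (SE 0.48, adjusted p = 0.00195), and none of its 100-base windows occurred in another gene. Serpina3a, which starts 6.6 kb beyond Serpina5, had 0 reads in every Prox1-cKO liver, against 26, 50 and 31 reads in WT livers. It was called lower (adjusted p = 0.00165), and on a floor of 3 reads per library its level was at least 9.13-fold lower in Prox1-cKO. Between Serpina5 and Serpina3a the rRNA gene Gm23289, singled out after its values were seen, had 0 reads in every Prox1-cKO liver, against 14, 22 and 13 reads in WT livers (adjusted p = 0.00296). Serpina3a and Gm23289 passed the filter through their WT reads alone, and both drop out with at least 10 counts in every library. Nothing further is therefore read from their adjusted p values. Serpina9, known from B cells of the germinal centre, had 2, 0 and 0 reads in Prox1-cKO livers, against 8, 51 and 19 reads in WT livers. It did not pass the filter, and the ratio of WT over Prox1-cKO was 30.2 (95% exact counting interval 8.09 to 254). B cell markers summed to 5.09 to 5.37 CPM in Prox1-cKO livers, against 7.22 to 24.2 CPM in WT livers, with 1 of 4 tested lower. Their sum was highest in WT replicate 2, the liver with the 51 Serpina9 reads, and their part in the Serpina9 difference was not tested.

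**Figure D4:**
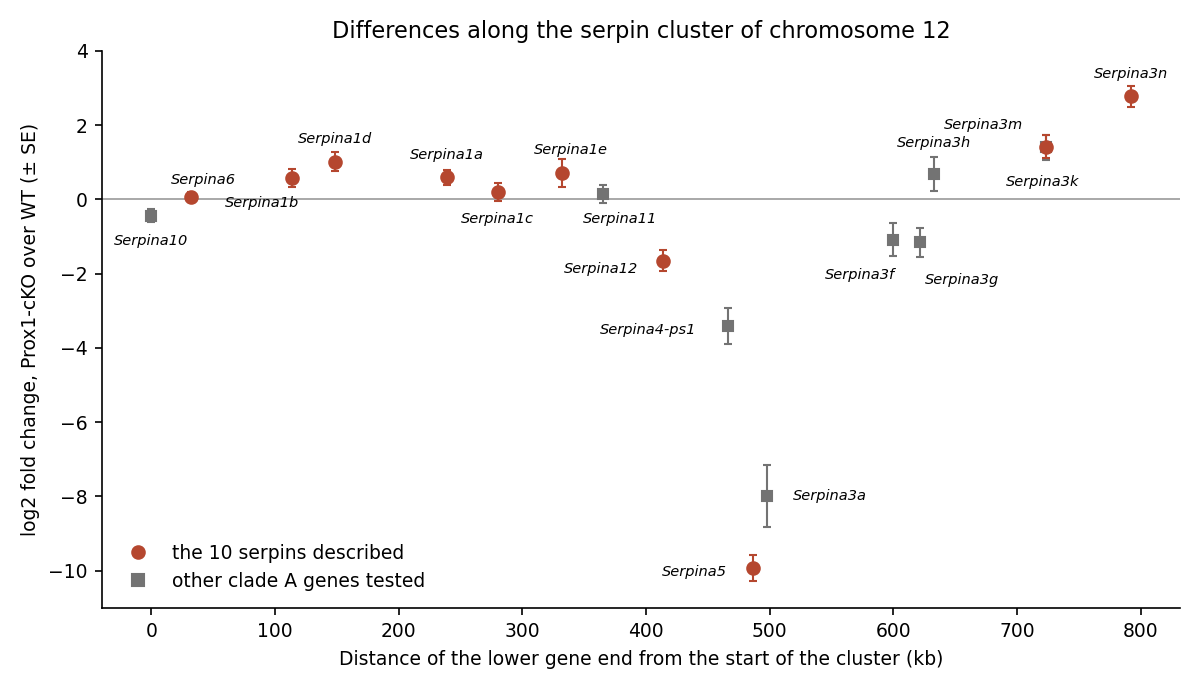
Fitted log2 fold change of Prox1-cKO over WT (vertical axis, bars show the SE) for the tested Serpina genes of the cluster, by the distance of the lower gene end from the start of the cluster in kb (Serpina3m lies under Serpina3k). Serpina12, Serpina4-ps1, Serpina5 and Serpina3a lie next to each other at -1.65, -3.41, -9.93 and -7.98, with Serpina3k and Serpina3n at 1.41 and 2.77 near the far end; for Serpina3a, with 0 reads in Prox1-cKO, the fitted value is no bound.

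Of the 19 other rows of clade A in the table, 10 passed the filter, of which 2 rose and 3 fell. Over all tested genes 14.1% rose and 20.2% fell, and these shares stand beside every count of called genes below. Agt, the angiotensinogen gene, which lies on chromosome 8 outside the cluster, had 932, 1008 and 799 CPM in Prox1-cKO livers, against 386, 457 and 495 CPM in WT livers, and rose (log2 fold change 1.03, SE 0.18, adjusted p = 0.00445). Serpina3m had 565, 378 and 214 CPM in Prox1-cKO livers, against 179, 126 and 134 CPM in WT livers, and rose (1.40, SE 0.33, adjusted p = 0.0153). Leaving out WT replicate 2 ended this call (adjusted p = 0.0548). Serpina7, the gene of thyroxine-binding globulin on the X chromosome, had 3.19, 3.50 and 5.03 CPM in Prox1-cKO livers, against 8.47, 8.08 and 10.9 CPM in WT livers, and fell (-1.23, SE 0.23, adjusted p = 0.00602). The other genes of this group that fell, Serpina4-ps1 and Serpina3a, are the neighbours of Serpina5.

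The other tested clade A genes did not pass. Serpina10, which encodes the inhibitor that acts with protein Z on factor X, had a log2 fold change of -0.44 (adjusted p = 0.0839). Serpina3g had 16.7, 13.9 and 13.7 CPM in Prox1-cKO livers, against 44.3, 40.7 and 13.4 CPM in WT livers, with an adjusted p of 0.0515. Serpina3f had the same layout, at 8.31, 5.73 and 5.68 CPM in Prox1-cKO livers, against 19.7, 17.1 and 5.13 CPM in WT livers (adjusted p = 0.0931). In both genes WT replicate 3 lay below the mutant livers, and without it both were called lower, at -1.51 (adjusted p = 0.000306) and -1.47 (adjusted p = 0.00139). Serpina10 was also called lower without WT replicate 3, at -0.58 (adjusted p = 0.00963). Serpina3h, a transcribed pseudogene, had a log2 fold change of 0.67 (adjusted p = 0.293). Among the rows that did not pass the filter, Serpina3j had 0 reads in Prox1-cKO livers and 37 reads over the WT livers, 28 of them in replicate 3, and Serpina3l-ps had no read in any liver. The pseudogene Gm8893, which shares sequence with Serpina1a and was singled out after its values were seen, had 27.9, 28.2 and 28.8 CPM in Prox1-cKO livers, against 37.6, 38.3 and 73.3 CPM in WT livers, a log2 fold change of -0.81 (adjusted p = 0.0402), opposite in sign to that of Serpina1a.

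Outside the cluster, 5 tested protein-coding genes on each side were measured. Of these 10 genes 1 rose and 1 fell, beside 14.1% and 20.2% of all genes, and the median log2 fold change was 0.00. Ifi27l2b, a relative of the interferon-inducible gene Ifi27, had 3.56, 3.06 and 3.67 CPM in Prox1-cKO livers, against 76.9, 46.6 and 50.3 CPM in WT livers, and fell (-4.08, SE 0.23, adjusted p = 4.38e-05). Its neighbours Ifi27 and Ifi27l2a had log2 fold changes of -0.57 (adjusted p = 0.105) and -1.24 (adjusted p = 0.066), with WT replicate 3 within or below the range of the mutant livers. Both were called lower without WT replicate 3, at -0.76 (adjusted p = 0.0167) and -1.61 (adjusted p = 0.00106). Next to Serpina10, Ppp4r4, a regulatory subunit of protein phosphatase 4, had a log2 fold change of -0.06 (adjusted p = 0.865), and Ddx24, an RNA helicase, one of 0.07 (adjusted p = 0.672). On the side of Serpina3n, Dicer1, the nuclease that makes microRNAs, had 69.2, 67.9 and 71.6 CPM in Prox1-cKO livers, against 49.3, 46.8 and 55.3 CPM in WT livers, and rose (0.46, SE 0.11, adjusted p = 0.0169). Scaling by totals ended the Dicer1 call (0.05, adjusted p = 0.69), as did fits without WT replicate 1 (0.0617), WT replicate 2 (0.0624) or Prox1-cKO replicate 2 (0.0536). Clmn, Syne3, Glrx5 and D430019H16Rik did not pass, at 0.26, -0.12, 0.57 and 0.72 on the log2 scale. Glrx5, which acts in iron-sulfur cluster assembly, was called higher without WT replicate 3 (0.74, adjusted p = 0.0208).

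The genes whose levels followed Serpina5 most closely over the 6 livers, by Pearson's r of log2(CPM + 1), were Prss8 (0.9998), Ldhb (0.9996) and 1810010D01Rik (0.9994). Prss8 encodes prostasin, a membrane serine protease, and had 3.34 ± 0.13 CPM in Prox1-cKO livers and 102 ± 11.2 CPM in WT livers (SD, n = 3 each). Ldhb, the heart-type subunit of lactate dehydrogenase, had 2.09 ± 0.39 CPM in Prox1-cKO livers and 186 ± 45.2 CPM in WT livers. With 6 livers in 2 genotypes, any gene far apart between genotypes has a high r with Serpina5, and 862 tested genes lay above 0.95. For Serpina12 the closest were C2cd4c (0.998), Slc28a1 (0.9966) and Cyp2c55 (0.9964), out of 268 genes above 0.95. Cyp2c55 had 0.463 ± 0.327 CPM in Prox1-cKO livers and 32.5 ± 23.5 CPM in WT livers, so its WT spread was wide, as was that of Serpina12.

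The serpins of other clades went different ways. Of 9 secreted serpins, 2 rose and 1 fell, beside 14.1% and 20.2% of all genes, with a median log2 fold change of 0.41. Serpinf1, pigment epithelium-derived factor, rose to 746 ± 28.8 CPM in Prox1-cKO livers, against 299 ± 52.5 CPM in WT livers (1.32, adjusted p = 0.00166). Serpinf2, which encodes the plasmin inhibitor, was called higher (0.63, adjusted p = 0.0463), and the call was lost without either of WT replicates 1 (0.139) and 2 (0.123) or Prox1-cKO replicates 1 (0.131) and 2 (0.135). Serpinh1, the collagen chaperone HSP47, fell to 8.14 ± 1.34 CPM in Prox1-cKO livers, against 31.2 ± 5.87 CPM in WT livers (-1.94, adjusted p = 0.00049), beside the lower summed level of stellate cell and fibroblast markers, whose part in it was not tested. Antithrombin (Serpinc1) had a log2 fold change of 0.41 (adjusted p = 0.112). Of the intracellular clade B serpins all 5 that were tested of 11 fell, with a median of -2.12. Serpinb1a, an inhibitor of neutrophil proteases, fell to 5.45 ± 3.68 CPM in Prox1-cKO livers, against 94.7 ± 31.2 CPM in WT livers (-4.12, adjusted p = 0.00109). Serpinb6b, Serpinb9 (the granzyme B inhibitor) and Serpinb6a had log2 fold changes of -3.25, -2.12 and -1.69. Among leukocyte markers, those of neutrophils summed to 0.887 to 2.06 CPM in Prox1-cKO livers, against 5.56 to 6.25 CPM in WT livers, with both tested markers of 6 lower. Macrophage markers summed to 289 to 414 CPM in Prox1-cKO livers, against 367 to 752 CPM in WT livers, so that the sums overlapped, with 5 of 6 lower, and T and NK cell markers to 3.55 to 4.38 CPM, against 5.59 to 15.4 CPM in WT livers, with 2 of 5 tested lower. Their part in the clade B differences was not tested.

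The median log2 fold change of 20 tested proteases that serpins inhibit was 0.12, and 7 rose and 6 fell, beside 14.1% and 20.2% of all genes. Among called genes with no overlap between genotypes, the largest differences were in 4 genes that fell, each at a low level in the mutant. Gzma and Gzmb were also called lower, at -2.72 and -2.53, but their genotypes overlapped. The largest rise was that of Klkb1, at 1.09 (adjusted p = 0.00483). Prss8 had a log2 fold change of -4.93 (adjusted p = 9.22e-06), the tissue plasminogen activator gene Plat -2.88 (adjusted p = 0.00135), the matriptase gene St14 -2.05 (adjusted p = 0.0115) and the urokinase gene Plau -1.50 (adjusted p = 0.00695). Of the 6 genes of the protein C system, the substrate pathway of Serpina5, 2 rose and 1 fell (median 0.04). Proc, which encodes protein C, rose to 549 ± 69.3 CPM in Prox1-cKO livers, against 308 ± 46.6 CPM in WT livers (0.84, adjusted p = 0.0104), and at 0.43 it was not called with library totals alone (adjusted p = 0.0594). F5, coagulation factor V, was called higher (0.77, adjusted p = 0.0331) and Procr, the endothelial protein C receptor, lower (-1.46, adjusted p = 0.0177). Leaving out any of 4 single libraries, namely WT replicates 1 and 2 and Prox1-cKO replicates 1 and 2, ended the call of F5 (adjusted p 0.0966 to 0.112) and of Procr (0.0502 to 0.0623).

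Serpina6 binds glucocorticoids, and of 10 tested genes of glucocorticoid action 6 rose and none fell, with a median of 1.17. Over all genes 14.1% rose and 20.2% fell. Serpina6 itself overlapped between genotypes. Fkbp5, a chaperone induced by the glucocorticoid receptor, rose to 225 ± 52.6 CPM in Prox1-cKO livers, against 46.3 ± 18.1 CPM in WT livers (2.28, adjusted p = 0.00145). Tat, tyrosine aminotransferase, rose with 2.25 (adjusted p = 0.00171), Pck1 with 2.0 (adjusted p = 0.00161) and Hsd11b1, which regenerates active glucocorticoid, with 1.88 (adjusted p = 0.000484). The receptor gene Nr3c1 had 85.5 ± 13.8 CPM in Prox1-cKO livers and 84.3 ± 2.65 CPM in WT livers (0.02, adjusted p = 0.93). The hour at which the livers were taken, with which glucocorticoid levels vary, is not given in the labels.

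Of 18 transcription factors known to act on serpin genes in liver, 6 rose and 2 fell (median 0.39), beside 14.1% and 20.2% of all genes. Cebpd, a C/EBP factor of the acute phase, rose with 1.64 (adjusted p = 0.000943), Ppara with 1.31 (adjusted p = 0.00345) and Foxa3 with 1.11 (adjusted p = 0.00697), and Onecut1 fell with -1.68 (adjusted p = 0.00907). Of 9 cytokine and growth hormone receptors and their regulators, 2 rose and 1 fell (median 0.00). Socs2, a target of growth hormone signalling, fell with -3.72 (adjusted p = 0.000299), Il6ra rose with 1.62 (adjusted p = 0.00321), and Il1r1 was called higher (1.10, adjusted p = 0.0203), a call lost without WT replicate 1 (0.0616) or 2 (0.0669).

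Serpina3n is itself an acute phase gene, and the other acute phase plasma proteins went both ways. Of 17 tested genes 2 rose and 4 fell (median -0.25), beside 14.1% and 20.2% of all genes. Saa1, a major acute phase protein, fell to 24.4 ± 13.8 CPM in Prox1-cKO livers, against 361 ± 235 CPM in WT livers (-3.89, adjusted p = 0.00329). Saa2, Orm2 and Apcs fell with -3.55, -2.25 and -1.86, and Hp, haptoglobin, rose with 1.02 (adjusted p = 0.00678). Of 14 tested constitutive plasma proteins 8 rose and none fell, with a median of 0.80. Rbp4, the retinol carrier, rose to 4685 ± 498 CPM in Prox1-cKO livers, against 1381 ± 375 CPM in WT livers (1.76, adjusted p = 0.00212), Ttr rose with 1.32, Apoa1 with 1.32 and Apoh with 1.27. Of 19 genes for folding and export of secreted proteins 6 rose and 3 fell (median 0.21). Sel1l and Tango2 rose with 0.83 and 0.77, Edem2 fell with -0.70, and Hspa5, the main chaperone of the endoplasmic reticulum, was called higher (0.89, adjusted p = 0.0265), a call lost without WT replicate 1 (0.0703) or Prox1-cKO replicate 3 (0.0713). Lman1 and Surf4, cargo receptors for secreted proteins, had log2 fold changes of 0.14 (adjusted p = 0.475) and 0.17 (adjusted p = 0.389).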

How the data were processed

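RNA of 3 Prox1-cKO and 3 WT livers was enriched by oligo(dT), made into cDNA with random primers and sequenced by the authors. The deposited table holds raw counts per gene, with no normalization. HISAT2 2.1.0, DESeq and HTSeq are the tools listed in the processing notes of the submitters. These notes give GRCh38, a human build, although 29605 of the 29667 row identifiers are in the mouse annotation GENCODE M21 (GRCm38), from which positions were taken. A second table, labelled as FPKM, and the authors' own comparisons were not used. Counts as deposited were tested with edgeR 4.0.16 (R 4.3.3): filterByExpr, TMM, quasi-likelihood test, Benjamini-Hochberg adjustment over all genes tested and a call at an adjusted p under 0.05. The script was tested on simulated data. Alternatives used DESeq2 1.42.0 and limma 3.58.1 with a pseudocount of 1 CPM, other filters and scalings, and each library left out. Counting intervals are exact at 95% and floors are 3 reads per library, for counting error only, since reads carry no molecular identifiers. Symbols turned into dates (23) were restored by identifier.

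The members and gene lists were chosen with earlier results of these data known. Named are Prox1, all members, the tested clade A genes, 5 flanking genes per side, and at most 4 called genes per list by size of change with no overlap. Also named are the 3 genes most like Serpina5 and Serpina12. A few more were named for their role, position or size of change after their values were seen. Of the lists and markers, Serpinb5, Klk7, Tf, Kap, Slc12a1, Aqp2, Amy2a5, Prm2, Tnp1 and Pate4 were not matched in the table. Results for 1 further promoter motif and 1 listed gene are not reported here.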

Additional observations from a re-analysis of the deposited data

How the results depend on the processing

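Precision was limited by 3 samples per genotype, by the 7 Serpina5 reads of the mutant and by shared sequence among the Serpina1 copies. For the members, calls lower in Prox1-cKO numbered 1 with at least 10 counts in every library, a filter that removes Serpina5 by construction, and calls higher numbered 5 with DESeq2 and 2 to 5 when single libraries were left out. Chosen after the data were seen, the count of members without overlap was 3 higher with library totals alone. For the other clade A genes, calls lower numbered 6 with library totals alone, 8 with no filter, 5 with DESeq2 and 3 to 6 when single libraries were left out, and calls higher 1 to 2. Over all genes, library totals alone gave 6060 lower and 725 higher, and single libraries left out gave 1999 to 3468 lower and 1201 to 2604 higher. The causes were not tested. With library totals alone, signs turned with no call for Serpina11 (-0.28), Ddx24 (-0.34) and Clmn (-0.14). They also turned for the members Serpina1c (-0.20) and Serpina6 (-0.34), and the members had 3 calls lower and 2 higher. When single libraries were left out, signs turned with no call for the member Serpina1c (-0.011 to 0.49). They did so too for Serpina11 (-0.095 to 0.35), Ppp4r4 (-0.26 to 0.10) and Syne3 (-0.29 to 0.045). Library totals alone also ended the calls of Serpinf2 (adjusted p = 0.358), F5 (0.167), Hspa5 (0.159), Tango2 (0.0863) and Il1r1 (0.0565). Of 135 member values 123 were counted as unmoved, by a margin that was wider than the SE for some genes. Serpina12, which went from -1.65 (SE 0.27) to -2.05 with library totals alone, was among these. Most of the other 12 moved with library totals alone. Same-numbered samples deviated together with r = 0.176, 0.083 and 0.169, so the numbers were not taken as pairing, although each library correlated best with its own number. With the replicate block the members had 3 calls higher and 2 lower, the other clade A genes 2 and 3, and all genes 2029 and 2988. Among named genes the block ended the calls of Serpinf2 (adjusted p = 0.0821) and F5 (0.0545) and called Glrx5 (0.0162).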
